A study of Mus musculus with 9 samples.

Results

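The comparison described here sets 2 short hairpin RNAs against the same gene, Apela, side by side in R1E mouse embryonic stem cells. It rests on 6 of the 9 arrays of the series: 3 of total RNA from cells transduced with a lentivirus carrying the first hairpin (shApela_1) and 3 with the second (shApela_2), chosen by their titles. The other 3, from cells given a hairpin to luciferase (shLuc), an insect gene that mouse cells lack, give the reference level and share the estimate of the spread. All 3 groups are of the R1E strain, were grown with fetal bovine serum and leukemia inhibitory factor, and received no drug. Whether the repeats were separate cultures is not stated in the labels; the p-values therefore reflect the spread between these arrays alone, which may be technical. Each group carries 1 hairpin construct. All 19938 genes with a probe set of a single gene symbol were compared, each through its brightest probe set.

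Apela encodes a small secreted peptide that signals through the apelin receptor, and the series title presents its RNA as a regulator of p53-mediated apoptosis in embryonic stem cells. A short hairpin RNA is processed like a microRNA precursor, and its guide strand can also pair through its seed with transcripts other than the intended one. For that reason knockdown studies commonly use more than 1 hairpin, and a change seen with a single hairpin cannot be assigned to loss of the target by itself. The hairpin sequences were not used here.

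Apela was equally low with both hairpins. On a log2 scale its level was 9.76, 9.68 and 9.65 on the shApela_1 arrays and 9.79, 9.79 and 9.56 on the shApela_2 arrays, against 11.40, 11.31 and 11.19 on the shLuc arrays. All 6 hairpin arrays lay below all 3 reference arrays, and the hairpins overlapped. The difference of shApela_2 minus shApela_1 was 0.02 (SE 0.08, 95% interval from -0.16 to 0.20, limma, adjusted p = 0.906). Relative to shLuc, 32.9% of the signal was left with shApela_1 and 33.4% with shApela_2. Apln, the other ligand of the receptor, differed by 0.08 (adjusted p = 0.438) and Aplnr, the receptor, by 0.16 (adjusted p = 0.507).

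**Figure D1:**
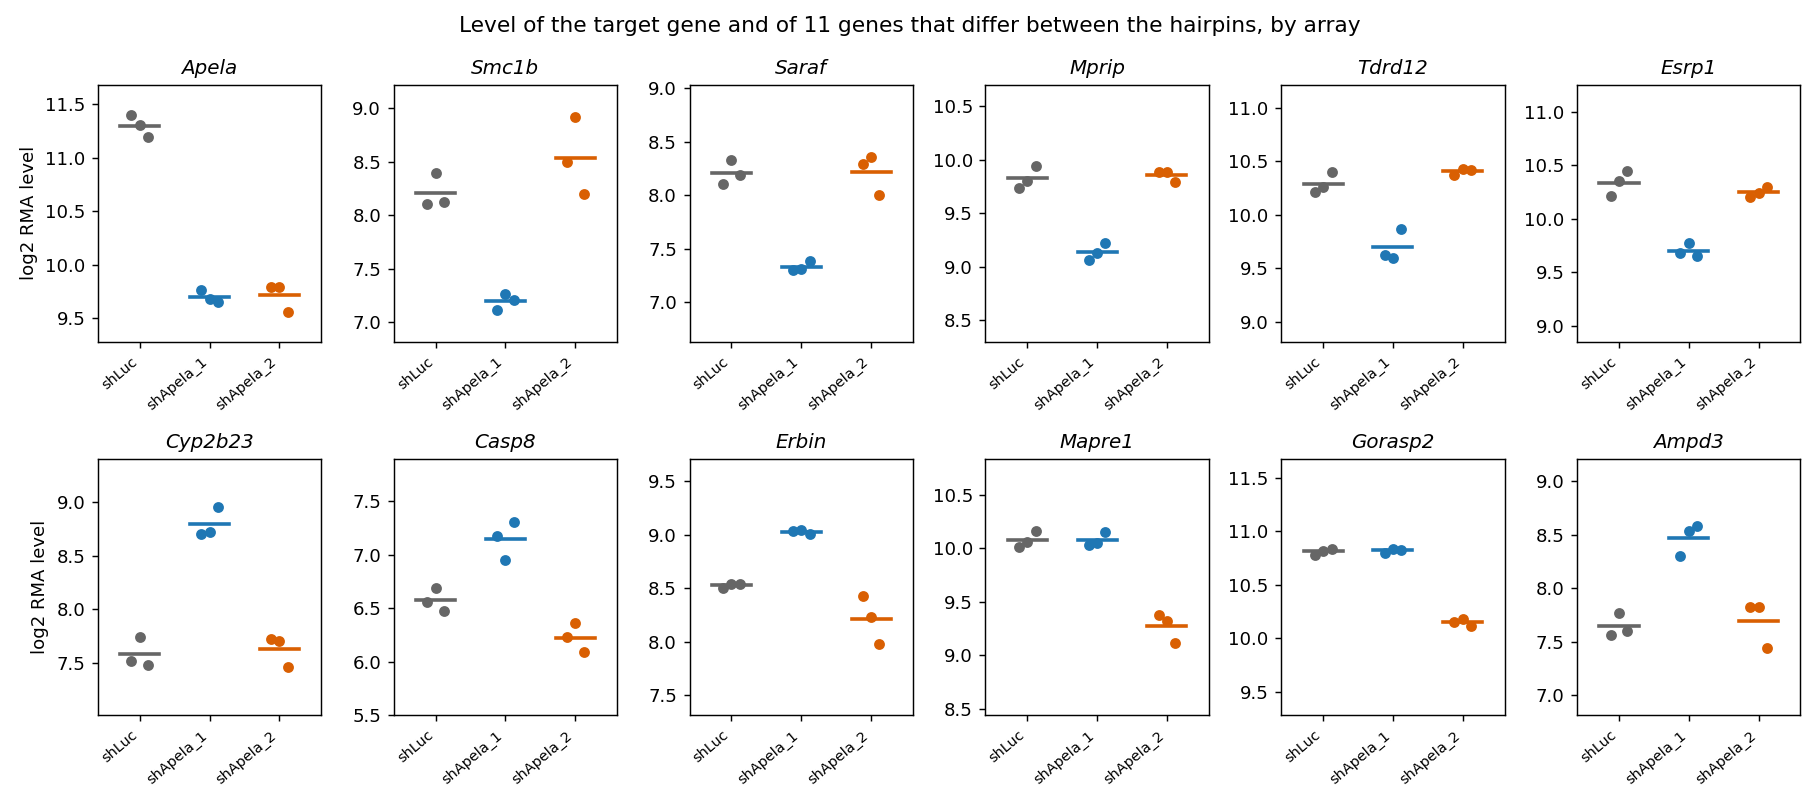
Log2 RMA level (vertical axis, every panel with the same span) of Apela and 11 genes that differ between the hairpins. Points are arrays in the order of replicates 1 to 3 and lines are group means. Apela overlaps between the hairpins, while Smc1b, Saraf, Mprip, Tdrd12 and Esrp1 are low with shApela_1, Cyp2b23, Casp8, Erbin and Ampd3 are high with it, and Mapre1 and Gorasp2 are low with shApela_2.

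Markers of undifferentiated cells were bright in all groups. The 30 measured genes of core and naive pluripotency all lay above the median probe set of the table (7.06), and the transcription factors Pou5f1, Sox2 and Nanog measured 12.07, 12.09 and 12.28 in shLuc, with differences between the hairpins of 0.07, -0.04 and -0.03. The third shApela_2 array stood apart: its median was 7.12 against 7.03 to 7.07 on the other 8, and its highest correlation with any other array was 0.9952, where each of the others reached at least 0.998. Of the genes below the median probe set 80.5% were higher in shApela_2 than in shApela_1 with this array and 56% without it, and of the brighter genes 38.1% and 43.9%. Over all genes 57.8% were higher with it and 49.5% without it. Its part in the differences below was not tested beyond the values given without it.

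At this equal level of Apela, 189 genes differed between the hairpins (0.948% of those tested, limma, adjusted p at most 0.05), 71 of them higher in shApela_2 and 118 lower. The arrays of the hairpins did not overlap for any of the 189, as was the case for 17.6% of all genes (7.49% with shApela_2 higher and 10.1% with it lower). Differences were mostly moderate: the median size was 0.39, 23 genes reached 1.5-fold, and 2 genes reached 2-fold, the meiotic cohesin gene Smc1b upward and the cytochrome P450 gene Cyp2b23 downward. By comparison, 67 genes (0.336%) passed between shApela_1 and shLuc and 3 (0.015%) between shApela_2 and shLuc. Without the third shApela_2 array 222 genes passed, 100 higher and 122 lower, of which 146 were among the 189.

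**Figure D2:**
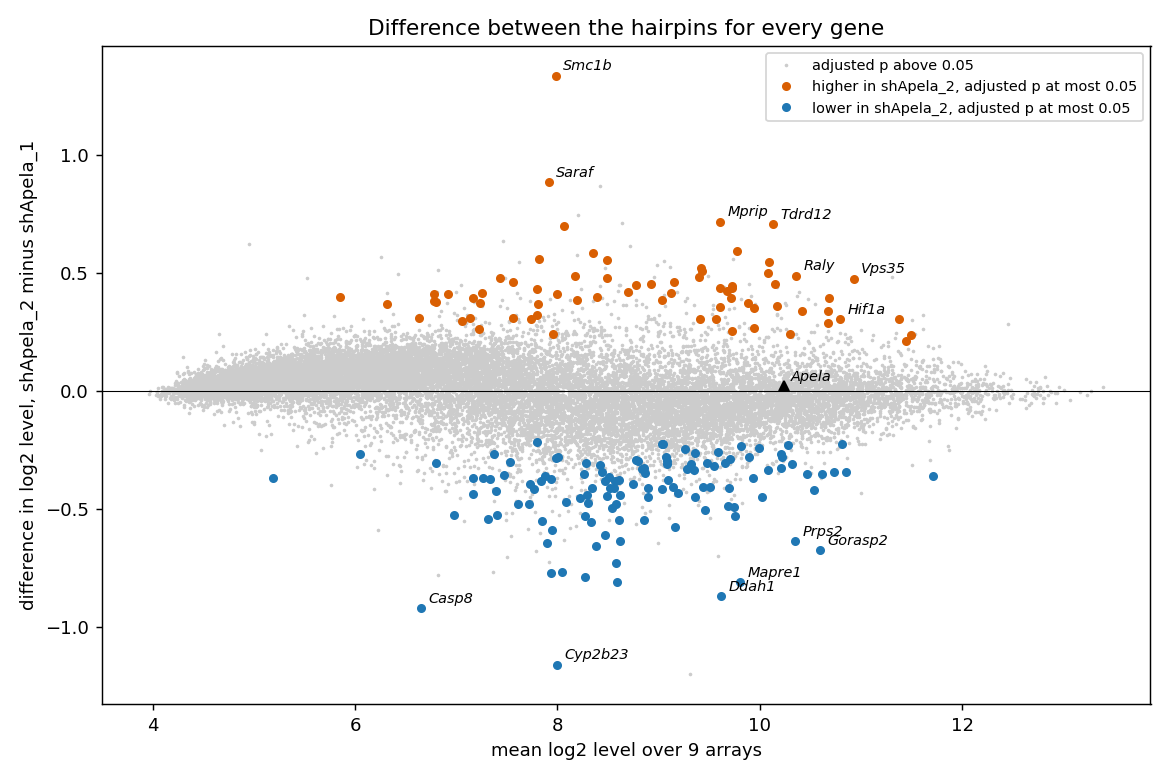
Difference in log2 level, shApela_2 minus shApela_1 (vertical axis), against the mean log2 level over 9 arrays (horizontal axis) for 19938 genes. Orange points are the 71 genes higher in shApela_2, blue points the 118 lower, both at an adjusted p of at most 0.05, grey points all others. Apela (black triangle) lies at 0.02, while Smc1b and Cyp2b23 mark the extremes among the coloured points.

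The number of genes depended on which arrays were in the fit. All 189 kept their sign without any 1 of the 9 arrays, but this outcome was fixed in advance. The hairpins did not overlap for any of the 189, and leaving out a shLuc array does not move their difference. Leaving out the first, the second or the third shLuc array gave 89, 92 or 115 genes. Leaving out a shApela_1 array gave 19, 20 or 81, and leaving out a shApela_2 array gave 95, 58 or 222, in the same order. Every 1 of the 172 genes that lost its call in any of these fits lost it without the first or the second shApela_1 array. The 17 genes that passed in all 9 fits were Mprip, Slc23a1, Raly, Glis3, Mael and Zwint, higher in shApela_2, and Cyp2b23, Mapre1, Fam171b, Klhl42, Gorasp2, Mbd2, Prps2, Gatm, Ust, Miip and Ptgr1, lower in it. Glis3, Zwint, Gatm, Ust, Miip and Ptgr1 are outside the rule for named genes and are given because they passed in all 9. A block for the replicate number gave 653 genes (3.28%), all 189 among them. A fit of the 6 hairpin arrays alone gave 28, all among the 189; of the 79 named genes that passed, 16 kept their call there. Scaling shifted the balance of directions: 144 genes were higher in shApela_2 and 122 lower when the arrays were quantile normalized once more, and 38 and 125 with centred array medians.

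**Figure D3:**
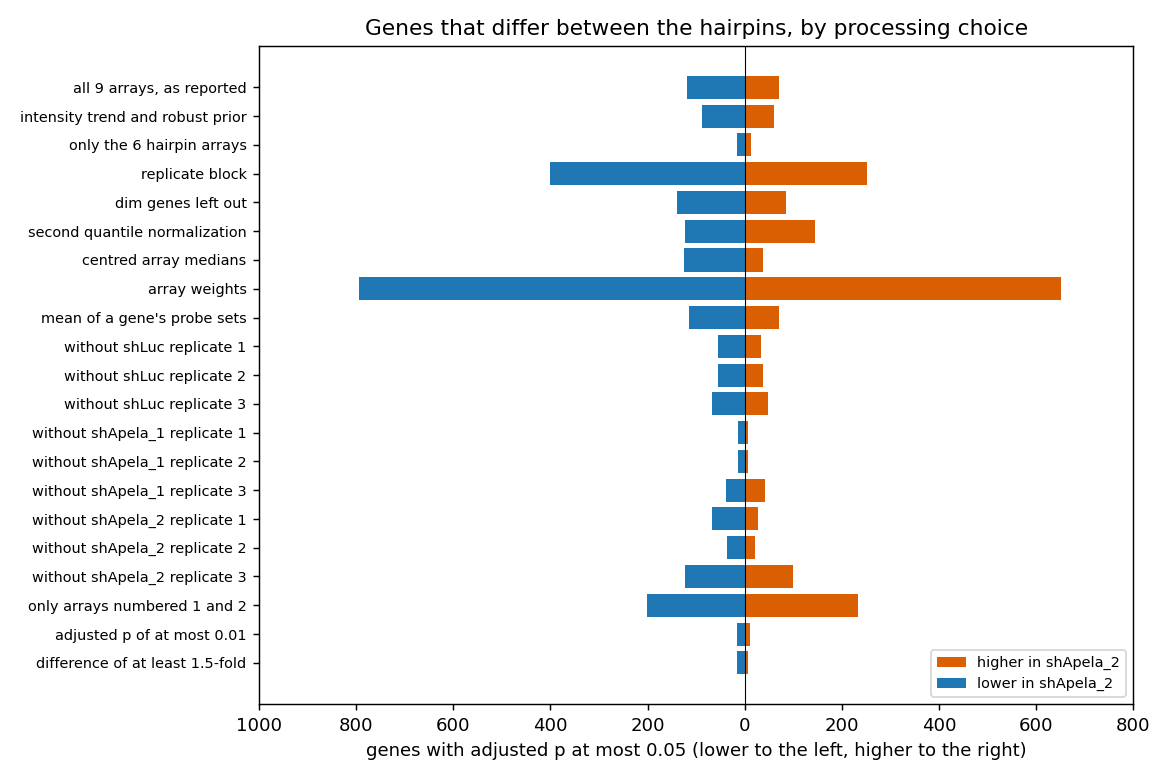
Number of genes with an adjusted p of at most 0.05 between the hairpins (horizontal axis, lower in shApela_2 to the left, higher to the right) for each processing choice. In the last entry a difference of at least 1.5-fold is asked for as well. The count is smallest without the first or second shApela_1 array (19 and 20) and largest with array weights (1446).

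The shLuc level usually lay between the hairpins, nearer to shApela_2 for genes higher in shApela_2: their median distance from shLuc was 0.35 with shApela_1 and 0.07 with shApela_2, beside 0.22 and 0.16 for the genes lower in shApela_2. Of the 189 genes, 153 had the shLuc mean between the hairpin means (81.0%, against 43.5% of all genes), and for 136 shApela_1 lay farther from it (72.0%, against 41.3%). A wide gap between the hairpins in itself favours a reference that falls inside it, so these shares are a description. Among the 71 genes higher in shApela_2, 68 were farther from shLuc with shApela_1; the shApela_1 arrays were clear of the shLuc arrays for 70 and the shApela_2 arrays for 16. Among the 118 lower in shApela_2, 68 were farther with shApela_1 and 50 with shApela_2. In these 118 the arrays of shApela_1 were clear of shLuc for 93, those of shApela_2 for 75 and both for 50. Over all 19938 genes the arrays of shApela_1 were clear of shLuc for 2725, those of shApela_2 for 2060 and both for 584. Of the 189, 49 also passed between shApela_1 and shLuc and 2 between shApela_2 and shLuc, Gorasp2 and Mapre1. These 2 comparisons share the shLuc arrays with each other.

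**Figure D4:**
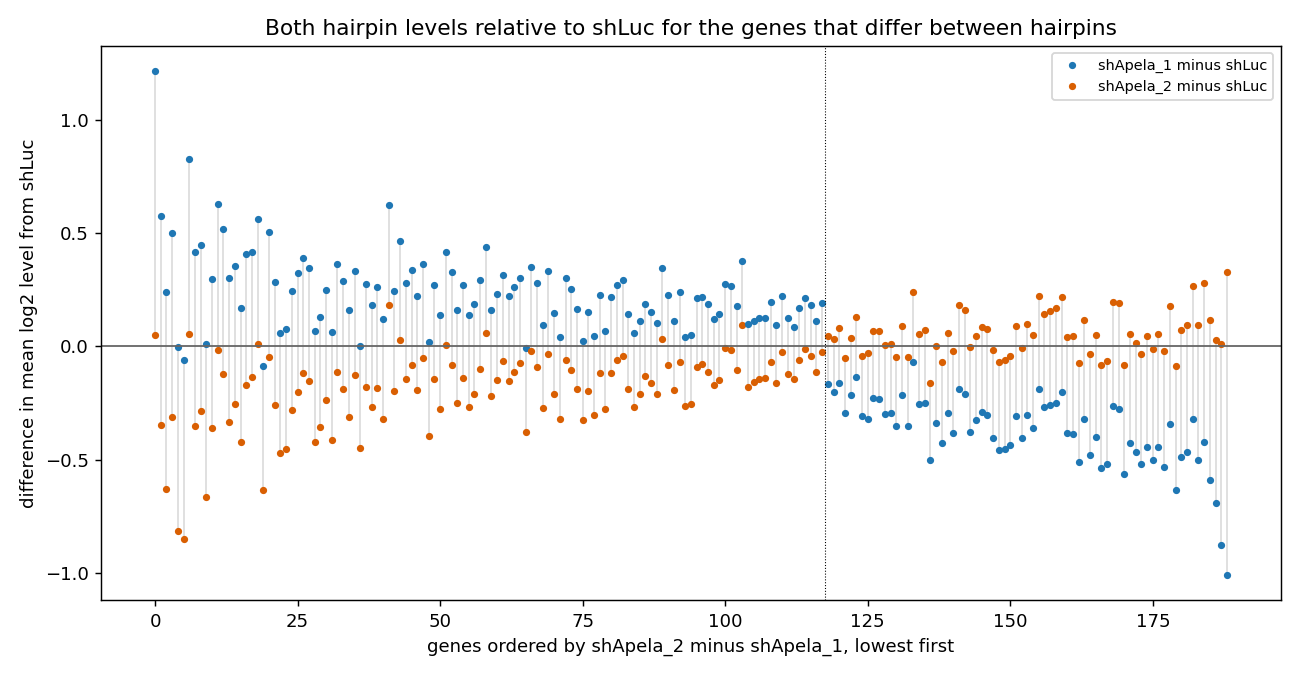
Difference in mean log2 level from shLuc (vertical axis) of shApela_1 (blue) and shApela_2 (orange) for the 189 genes that differ between the hairpins, ordered by shApela_2 minus shApela_1; a grey line joins both values of a gene. To the right of the dotted line are the 71 genes higher in shApela_2, where shApela_2 lies near 0 and shApela_1 below it; to the left are the 118 lower in shApela_2, where the hairpins lie mostly on opposite sides of 0.

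Among genes of meiosis and of the germline piRNA pathway, which produces small RNAs that silence transposons, the few that passed were all higher in shApela_2. The 58 measured genes stand in 3 lists (meiotic chromosome axis and cohesin, meiosis regulators and recombination, and piRNA pathway). These lists were chosen with earlier results of these data known, so their shares are a description. Of the 58, 5 passed and all 5 were higher in shApela_2 (8.62%, beside 0.948% of all genes, and 0.356% in that direction). With the block for the replicate number 7 passed (beside 3.28% of all genes in either direction). In all, 46 of the 58 were higher, with a median of 0.08 beside 0.02 over all genes, and 47 were higher without the third shApela_2 array, with a median of 0.09 beside 0.00. Only 26 of the 58 lay above the median probe set; of these 20 were higher, with a median of 0.10 beside -0.03 for the 10650 genes of that brightness. For comparison, the trophectoderm list, with 0 calls, had 21 of 23 genes higher and a median of 0.12.

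The sequences just upstream of Smc1b, Tdrd12, 4930432K21Rik and Mael, the widest gaps among the list members that passed, are shown because promoters of this gene class are known to carry sites of the E2F6 and MGA-MAX repressor complex that keeps germline genes silent in other cells. Each is the 250 bases before the RefSeq transcription start (GRCm38.p6), on the strand of the gene. Capitals mark the letters GCGGGA, the core of E2F sites, or CACGTG, the E-box of MAX dimers, on either strand. They are chr15:85131958-85132207 (minus strand) for Smc1b, chr7:35537716-35537965 (minus strand) for Tdrd12, chr8:84147788-84148037 (plus strand) for 4930432K21Rik and chr1:166238745-166238994 (minus strand) for Mael.
Smc1b: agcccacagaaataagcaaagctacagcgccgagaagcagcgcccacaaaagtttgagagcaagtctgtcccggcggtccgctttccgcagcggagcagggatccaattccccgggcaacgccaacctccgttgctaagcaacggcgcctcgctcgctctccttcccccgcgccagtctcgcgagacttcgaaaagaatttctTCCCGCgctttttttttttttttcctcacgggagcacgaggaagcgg
Tdrd12: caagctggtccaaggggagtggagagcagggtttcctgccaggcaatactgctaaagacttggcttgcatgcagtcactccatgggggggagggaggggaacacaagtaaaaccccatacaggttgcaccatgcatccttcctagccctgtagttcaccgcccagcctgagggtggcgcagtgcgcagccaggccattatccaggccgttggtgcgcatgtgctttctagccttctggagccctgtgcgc
4930432K21Rik: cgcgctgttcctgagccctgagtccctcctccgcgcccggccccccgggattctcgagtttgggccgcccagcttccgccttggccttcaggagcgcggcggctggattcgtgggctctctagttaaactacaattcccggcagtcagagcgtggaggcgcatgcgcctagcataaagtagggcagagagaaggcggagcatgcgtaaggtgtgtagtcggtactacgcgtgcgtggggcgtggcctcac
Mael: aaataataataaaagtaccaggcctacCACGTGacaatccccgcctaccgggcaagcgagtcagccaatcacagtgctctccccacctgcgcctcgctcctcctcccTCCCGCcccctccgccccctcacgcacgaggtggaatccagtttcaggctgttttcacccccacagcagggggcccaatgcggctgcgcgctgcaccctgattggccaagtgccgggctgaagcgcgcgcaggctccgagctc

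Smc1b held the E2F letters starting 47 bases before its start, Mael held them 143 bases and the E-box 223 bases before its start, and Tdrd12 and 4930432K21Rik held neither, nor did Exd1, the fifth member that passed, in its own 250 bases. Among the 48 genes of the 3 lists with a RefSeq window (250 bases before to 50 after the first listed start), 52.1% held GCGGGA and 27.1% CACGTG, beside 27.7% and 8.38% of the 15614 tested genes with a window. Of the 5 members that passed, 4 held GCGGGA and 1 CACGTG in that longer window. Among the genes that differed between the hairpins, 38.9% of the 54 with a window that were higher in shApela_2 held GCGGGA and 13% CACGTG, and 32.6% and 13.7% of the 95 that were lower. A match of letters is a description and not a binding site.

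Smc1b, the cohesin subunit of meiotic chromosomes, had the widest gap of the genes that passed. Its level was 7.12, 7.27 and 7.21 with shApela_1, 8.50, 8.92 and 8.20 with shApela_2 and 8.11, 8.40 and 8.13 with shLuc. The shApela_1 arrays lay about 1 unit below all others, and shApela_2 overlapped shLuc. The difference was 1.34 (SE 0.16, adjusted p = 0.0107), a ratio of 2.53-fold.

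Tdrd12, a Tudor domain protein of the piRNA pathway, measured 9.63, 9.60 and 9.87 with shApela_1 against 10.37, 10.43 and 10.42 with shApela_2 and 10.21, 10.26 and 10.40 with shLuc. The difference was 0.71 (SE 0.08, adjusted p = 0.00865), with shApela_2 and shLuc overlapping. Mael, which acts in transposon silencing in the male germline, measured 9.89, 9.80 and 9.79 with shApela_1, 10.32, 10.28 and 10.22 with shApela_2 and 10.34, 10.34 and 10.40 with shLuc. Its difference was 0.45 (SE 0.04, adjusted p = 0.00597), and the shApela_2 arrays lay just below those of shLuc. Exd1, a partner in piRNA biogenesis, was dimmer and differed by 0.38 (adjusted p = 0.0286).

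Outside the rule for named genes, the predicted gene 4930432K21Rik, now also called Brme1 and known for meiotic recombination, was the fifth member to pass, at 0.48 (adjusted p = 0.0148). M1ap (0.40, adjusted p = 0.0496), Prss50 (0.39, adjusted p = 0.0456) and Tesmin (0.41, adjusted p = 0.0478), genes known from spermatogenesis that stood in none of the lists and were picked after their values were seen, were higher in shApela_2 as well. Hormad1, of the meiotic chromosome axis, measured 8.17, 8.23 and 8.49 with shApela_1 and 8.75, 8.82 and 9.17 with shApela_2, a difference of 0.62 that did not pass (adjusted p = 0.105, and 0.00411 with the block). Its second probe set, dimmer at 6.50, showed 0.87 (adjusted p = 0.0418 with every probe set tested on its own). The mean of its probe sets passed as well (0.74, adjusted p = 0.0455). The germ cell regulators Meioc (0.71, adjusted p = 0.242) and Meiob (0.62, adjusted p = 0.324) differed widely but unevenly: on the third shApela_2 array they measured 8.28 and 4.58, against 9.15 and 9.10, and 5.68 and 5.55, on the first and second. Smc1b and Tdrd12 kept their calls in 7 of 9 fits without 1 array, failing without the first (adjusted p = 0.0628 and 0.0562) or second shApela_1 array (0.0663 and 0.0525); Exd1 kept its call in 2. M1ap, Prss50 and Tesmin lost theirs with centred array medians (adjusted p = 0.0972, 0.0814 and 0.0778), and Prss50 and Tesmin also after a second quantile normalization (0.0662 and 0.102).

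The enzymes and repressors that keep germline genes silent gave no call. Of 12 measured genes of DNA methylation and demethylation 0 passed in limma (1 with the block), with a median of 0.03. At an unadjusted p under 0.05 there was 1, beside 12.9% of all genes. The cofactor Dnmt3l measured 0.25 (adjusted p = 0.486, and 0.0341 with the block). Of 15 members of the PRC1.6 repressor complex and its partners 0 passed in limma (2 unadjusted, and 2 with the block), with a median of 0.01, and the ubiquitin ligase subunit Rnf2 measured -0.16 (adjusted p = 0.262). Mbd2, which binds methylated DNA and was not in these lists, was lower in shApela_2. It measured 8.61, 8.74 and 8.76 with shApela_1, 8.08, 8.06 and 8.0 with shApela_2 and 8.33, 8.39 and 8.50 with shLuc, so that the hairpins lay on opposite sides of the reference without overlap. The difference was -0.66 (SE 0.06, adjusted p = 0.0044).

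Several genes for proteins that bind RNA and steer splicing differed, in both directions. Esrp1 and Esrp2, the splicing regulators of epithelial cells, were both higher in shApela_2. Esrp1 measured 9.68, 9.77 and 9.65 with shApela_1, 10.20, 10.24 and 10.30 with shApela_2 and 10.21, 10.35 and 10.45 with shLuc, a difference of 0.55 (SE 0.06, adjusted p = 0.0102). The shApela_1 arrays lay below all others. Esrp2 differed by 0.31 (adjusted p = 0.0155, and 0.0506 with centred medians), from 7.52 ± 0.04 (SD, n = 3) to 7.83 ± 0.05. They were the 2 members past the test among 26 genes of epithelial identity (7.69%, beside 0.948% of all genes), of which 21 were higher in shApela_2 with a median of 0.09. With the block 5 passed (19.2%, beside 3.28% of all genes).

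Raly, an hnRNP protein, measured 9.97, 10.01 and 10.11 with shApela_1, 10.49, 10.51 and 10.56 with shApela_2 and 10.50, 10.55 and 10.55 with shLuc. Again the shApela_1 arrays alone were low, and the difference was 0.49 (SE 0.05, adjusted p = 0.00515). It was the 1 of 24 measured hnRNP genes to pass; the list median was -0.01, and 16 members were lower in shApela_2. Lin28a, which binds the let-7 precursor and blocks its processing, differed by 0.50 (SE 0.08, adjusted p = 0.0266), from 9.77 ± 0.07 with shApela_1 to 10.27 ± 0.14 with shApela_2 and 10.21 ± 0.08 in shLuc. It was the 1 gene to pass among 24 of the small RNA machinery (median -0.05; 3 with the block) and the 1 among 30 of core and naive pluripotency (median 0.03).

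Mbnl1, the muscleblind splicing regulator, went the other way. It measured 8.87, 9.02 and 9.11 with shApela_1, 8.43, 8.21 and 8.46 with shApela_2 and 8.40, 8.41 and 8.64 with shLuc, with shApela_1 alone high. The difference was -0.64 (SE 0.09, adjusted p = 0.0223). In a list of 28 regulators of alternative splicing drawn up after these values were seen, and so no independent evidence, 7 passed (25.0%, beside 0.948% of all genes; list median -0.03): Esrp1, Esrp2 and Celf4 higher in shApela_2, and Mbnl1, Celf2, Khdrbs3 and Rbm38 lower. The second probe set of Celf2, dimmer at 4.78, showed 0.01 where the brighter showed -0.30 (adjusted p = 0.0507 with every probe set tested on its own). Without 1 array Raly kept its call in all 9 fits, Esrp1 in 7, Esrp2 in 5, Mbnl1 in 4 and Lin28a in 2.

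Few genes of cell death differed. Casp8, the initiator caspase of death receptors, measured 7.18, 6.95 and 7.31 with shApela_1, 6.23, 6.36 and 6.09 with shApela_2 and 6.56, 6.69 and 6.48 with shLuc. The 3 groups did not overlap, with shApela_1 highest and shApela_2 lowest. The difference was -0.92 (SE 0.10, adjusted p = 0.00865), and with shLuc as reference shApela_1 measured 0.58 (adjusted p = 0.0716) and shApela_2 -0.35 (adjusted p = 0.68). Casp8 lay below the median probe set in shLuc. It lost its call without the first shApela_1 array (adjusted p = 0.0598).

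Cflar, the catalytically inactive relative of Casp8 that holds it in check, was also lower in shApela_2, at -0.44 (SE 0.08, adjusted p = 0.0497). That call rested on 1 of 3 probe sets: the other two, dimmer at 6.06 and 5.64, showed -0.16 and -0.04. It ended with every probe set tested on its own (adjusted p = 0.0509), with centred medians (0.0599), after a second quantile normalization (0.0766) and in 7 of 9 fits without 1 array. Casp8 and Cflar were the 2 genes to pass among 26 of death receptor signalling (7.69%, beside 0.948% of all genes), a list drawn up after their values were seen. Of the 26, 13 were higher in shApela_2 and 13 lower, with a median of -0.00.

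Targets of p53 gave 1 call, or 7 with the block for the replicate number. Of 40 measured p53 targets, 1 passed (2.50%, beside 0.948% of all genes): Ptpn14, a tyrosine phosphatase, at 9.59, 9.55 and 9.48 with shApela_1 and 9.23, 9.27 and 9.19 with shApela_2, against 9.12, 9.21 and 9.25 in shLuc. Its difference was -0.31 (SE 0.05, adjusted p = 0.0276), with shApela_1 alone high, and it passed in 3 of 9 fits without 1 array. In all 25 of the 40 were lower in shApela_2, with a median of -0.05, and 20 of 40 without the third shApela_2 array, with a median of -0.00. With the block, 7 of the 40 passed (17.5%, beside 3.28% of all genes), 6 lower in shApela_2 and 1 higher. Phlda3, an inhibitor of AKT, measured -0.21 (adjusted p = 0.0575, and 0.0419 with the block). Of 26 genes of intrinsic apoptosis 0 passed in limma (1 with the block), with a median of -0.01. At an unadjusted p under 0.05 there were 4, beside 12.9% of all genes. The effector Bak1 measured -0.36 (adjusted p = 0.121, and 0.035 with the block) and the mitochondrial protease Htra2 -0.19 (adjusted p = 0.15).

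A few genes of the cytoskeleton differed, in both directions. Mprip, which brings myosin phosphatase to actin, measured 9.06, 9.13 and 9.22 with shApela_1, 9.89, 9.89 and 9.79 with shApela_2 and 9.74, 9.80 and 9.94 with shLuc. The shApela_1 arrays lay below all others, and the difference was 0.72 (SE 0.06, adjusted p = 0.0044). Among 30 genes of the actin cytoskeleton and targets of serum response factor, 4 passed (13.3%, beside 0.948% of all genes): Mprip and the calponins Cnn1 (0.31, adjusted p = 0.0253) and Cnn2 (0.34, adjusted p = 0.0161), which bind actin filaments, were higher in shApela_2, and the profilin Pfn2 (-0.44, adjusted p = 0.0352) was lower. The list median was 0.04. Further genes were picked after their values were seen. The actin crosslinkers Flnc (0.32, adjusted p = 0.0421, and 0.0712 with centred medians) and Pls3 (0.39, adjusted p = 0.0274) and the actin-associated Palld (-0.37, adjusted p = 0.0148) differed as well. Without 1 array Mprip kept its call in all 9 fits, Palld in 7, Cnn2 in 5, Pls3 in 3, Cnn1 in 2, and Pfn2 and Flnc in 1 each. Palld was low with shApela_2 alone, at 6.84, 6.98 and 6.94 beside 7.32, 7.27 and 7.28 with shApela_1 and 7.25, 7.32 and 7.33 in shLuc.

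Mapre1, the end-binding protein of growing microtubules, was low with shApela_2 alone. It measured 9.37, 9.32 and 9.11 there, against 10.03, 10.05 and 10.15 with shApela_1 and 10.01, 10.06 and 10.16 with shLuc, whose arrays matched those of shApela_1. The difference was -0.81 (SE 0.07, adjusted p = 0.00457). Its relatives Mapre2 (-0.04, adjusted p = 0.772) and Mapre3 (0.12, adjusted p = 0.486) did not pass, and Mapre1 was the 1 call among 24 proteins of microtubule plus-ends (median -0.04, and 0.01 after a second quantile normalization). Haus1, of the augmin complex that branches spindle microtubules, was higher in shApela_2 at 0.51 (adjusted p = 0.0497, and 0.0869 with centred medians).

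Gorasp2, which stacks Golgi cisternae, had the smallest p of all genes. It measured 10.15, 10.18 and 10.12 with shApela_2, against 10.80, 10.84 and 10.83 with shApela_1 and 10.78, 10.82 and 10.84 with shLuc. The difference was -0.68 (SE 0.04, adjusted p = 0.000503) and stayed at an adjusted p of at most 0.0111 without any 1 array. Gorasp1, its relative, differed by 0.07 (adjusted p = 0.506). Vps35, the core subunit of the retromer that returns cargo from endosomes, was low with shApela_1 instead: 10.54, 10.52 and 10.69, against 11.03, 11.12 and 11.03 with shApela_2 and 11.13, 11.14 and 11.17 with shLuc. Its difference was 0.48 (SE 0.05, adjusted p = 0.00889), and the call ended without the first (0.0628) or second shApela_1 array (0.0574).

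Gorasp2 and Vps35 were the 2 calls among 27 genes of Golgi stacking, tethering and retromer (7.41%, beside 0.948% of all genes), 1 in each direction. Of the 27, 21 were lower in shApela_2, with a median of -0.09, and 16 without the third shApela_2 array, with a median of -0.03. Other genes of membrane traffic were picked after their values were seen. The Rab GTPases Rab21 (-0.31, adjusted p = 0.0178) and Rab31 (-0.45, adjusted p = 0.0187) were lower in shApela_2. They were the 2 calls among 47 Rab GTPases (4.26%, beside 0.948% of all genes, list median -0.06). The clathrin adaptor subunit Ap2a1 (-0.31, adjusted p = 0.0345, and 0.0628 after a second quantile normalization) was lower too. The Rab GTPase-activating protein Tbc1d20 (0.39, adjusted p = 0.0162) and the ESCRT-III subunit Chmp4c (0.45, adjusted p = 0.0158) were higher. Saraf, which damps calcium entry once stores are full, measured 7.30, 7.31 and 7.38 with shApela_1 against 8.29, 8.36 and 8.0 with shApela_2 and 8.10, 8.33 and 8.19 with shLuc. Only shApela_1 was low, and the difference was 0.89 (SE 0.09, adjusted p = 0.00823), the 1 call among 15 genes of store-operated calcium entry (median -0.05).

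Enzymes and transporters supplied several of the widest gaps. Cyp2b23 measured 8.70, 8.72 and 8.95 with shApela_1, 7.72, 7.70 and 7.46 with shApela_2 and 7.51, 7.74 and 7.48 with shLuc. With shApela_1 alone high, the difference was -1.16 (SE 0.10, adjusted p = 0.0044), a ratio of 2.24-fold, and the call stood in all 9 fits without 1 array. The family holds near-identical copies, and how far its probes tell them apart was not tested; of the 5 measured members Cyp2b23 alone passed and alone lay above the median probe set. Ddah1, which breaks down an inhibitor of nitric oxide synthase, was low with shApela_2: 8.98, 9.04 and 9.33, against 9.80, 9.99 and 10.18 with shApela_1 and 9.67, 9.69 and 9.88 with shLuc. Its difference was -0.87 (SE 0.12, adjusted p = 0.0162).

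In nucleotide metabolism, Ampd3, which deaminates AMP, measured 8.30, 8.53 and 8.58 with shApela_1, 7.82, 7.82 and 7.44 with shApela_2 and 7.56, 7.77 and 7.60 with shLuc. Its arrays were high with shApela_1 alone. The difference was -0.77 (SE 0.12, adjusted p = 0.0248), and it was the 1 call among 25 genes of purine interconversion (median -0.04). Prps2, which makes the ribose donor of nucleotide synthesis and was not in that list, measured 10.60, 10.61 and 10.78 with shApela_1 and 9.97, 9.99 and 10.12 with shApela_2, with shLuc in between at 10.28, 10.33 and 10.47. Its difference was -0.64 (SE 0.07, adjusted p = 0.00865), and Prps1, its relative, differed by -0.05 (adjusted p = 0.649). The nucleotidase Nt5c, picked after its value was seen, differed by -0.37 (adjusted p = 0.00989).

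The vitamin C transporter Slc23a1 (0.56, adjusted p = 0.00865), the lysosomal transporter Slc46a3 (0.70, adjusted p = 0.0469), the acyl-CoA dehydrogenase Acad11 (0.52, adjusted p = 0.0478) and the polyamine transporter Atp13a3 (0.34, adjusted p = 0.00894) were higher in shApela_2. Centred medians ended the calls of Slc46a3 (0.0604) and Acad11 (0.0662). Atp13a3 was the 1 call among 12 genes of polyamine metabolism. Its second probe set, dimmer at 7.67, showed 0.30 (adjusted p = 0.354 with every probe set tested on its own). The mean of its probe sets did not pass (0.32, adjusted p = 0.0601). Of 27 targets of NRF2, the transcription factor of the oxidative stress response, in a list drawn up after the values were seen, 24 were lower in shApela_2 with a median of -0.11 (-0.09 without the third shApela_2 array). Of the 27, 25 lay above the median probe set, where most genes were lower in shApela_2 (38.1% higher, median -0.03). Ptgr1 (-0.42, adjusted p = 0.0044), Txnrd1 (-0.28, adjusted p = 0.0287) and Mafg (-0.28, adjusted p = 0.0357, and 0.0576 after a second quantile normalization) passed, 11.1% of the list beside 0.948% of all genes.

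Signalling genes formed the next group. Erbin, a scaffold that binds the receptor ERBB2, measured 9.03, 9.04 and 9.01 with shApela_1, 8.43, 8.23 and 7.98 with shApela_2 and 8.50, 8.54 and 8.54 with shLuc. The hairpins lay on opposite sides of the reference without overlap, and the difference was -0.81 (SE 0.09, adjusted p = 0.01). A list of 23 Ras family GTPases and their exchange factors was drawn up after the values were seen. Of these 4 passed (17.4%, beside 0.948% of all genes, and 0.592% in that direction), all lower in shApela_2. They were Mras (-0.44, adjusted p = 0.0359), Rras2 (-0.27, adjusted p = 0.0478), Rerg (-0.36, adjusted p = 0.0496) and the exchange factor Sos2 (-0.46, adjusted p = 0.0443). In all 14 of the 23 were lower, with a median of -0.07, beside a median of -0.00 and 2 calls when the third shApela_2 array was left out. These 4 were weakly held: Mras and Rras2 passed in 0 of 9 fits without 1 array and Rerg and Sos2 in 2, while a second quantile normalization ended the calls of Mras (0.0755) and Rerg (0.0549) and centred medians those of Rras2 (0.0512) and Rerg (0.0547).

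Mknk2, a kinase that ERK activates, was higher in shApela_2 at 0.46 (SE 0.06, adjusted p = 0.013), from 8.60 ± 0.04 with shApela_1 to 9.05 ± 0.08, beside 9.12 ± 0.08 in shLuc. Fgf5, a growth factor of the primed epiblast, measured 7.53, 7.45 and 7.44 with shApela_1, 7.89, 7.93 and 8.28 with shApela_2 and 7.92, 7.88 and 8.02 with shLuc, a difference of 0.56 (SE 0.10, adjusted p = 0.0406, and 0.0647 after a second quantile normalization). Without 1 array Mknk2 kept its call in 7 of 9 fits and Fgf5 in 1. Mknk2 and Fgf5 were the 2 calls among 23 genes of FGF and ERK output (8.7%, beside 0.948% of all genes). The list median was -0.09, with 16 of 23 lower, and -0.03 without the third shApela_2 array. With the block 5 passed (21.7%, beside 3.28% of all genes). Of 23 Nodal, TGF-beta and BMP targets 2 passed (8.7%, beside 0.948% of all genes), 1 each way. The repressor Skil measured 0.27 (adjusted p = 0.0443, and 0.103 with centred medians) and the decoy receptor Bambi -0.34 (adjusted p = 0.0496, and 0.0766 after a second quantile normalization). Of 21 Wnt targets 0 passed in limma (2 with the block). At an unadjusted p under 0.05 there were 4, beside 12.9% of all genes. Notum, a secreted Wnt inhibitor, measured -0.53 (adjusted p = 0.131, and 0.00712 with the block). Among receptors picked after their values were seen, Igf1r (-0.41, adjusted p = 0.0345) and Tek (-0.48, adjusted p = 0.0276) were lower in shApela_2 and Flt1 (0.37, adjusted p = 0.0162) was higher.

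A few imprinted genes, expressed from 1 parental copy, differed, 1 upward and 2 downward. Peg3, a zinc finger gene, was higher in shApela_2 at 0.59 (SE 0.09, adjusted p = 0.0283), with 9.32, 9.52 and 9.39 for shApela_1, 10.01, 10.16 and 9.84 for shApela_2 and 9.84, 10.05 and 9.85 for shLuc. Nnat, which encodes a small membrane protein, was lower at -0.48 (SE 0.06, adjusted p = 0.0158), with 8.51, 8.59 and 8.58 for shApela_1, 8.14, 7.95 and 8.16 for shApela_2 and 8.28, 8.32 and 8.21 for shLuc. Ndn, necdin, was lower at -0.41 (adjusted p = 0.0158). These 3 of 21 measured imprinted genes passed (14.3%, beside 0.948% of all genes), and 5 with the block (23.8%, beside 3.28% of all genes). The list median was -0.06, with 11 of 21 lower. Peg3 passed in 2 of 9 fits without 1 array, Nnat in 6 and Ndn in 7.

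In the remaining places of the 15 widest differences on each side stood regulators of transcription and of protein turnover. Zhx1, a transcriptional repressor (0.59, adjusted p = 0.0403, and 0.069 with centred medians), and Creb3l1, a transcription factor anchored in the endoplasmic reticulum (0.49, adjusted p = 0.028), were higher in shApela_2. Kbtbd8 and Klhl42, adaptors of cullin 3 ubiquitin ligases, were lower. Kbtbd8 was low with shApela_2 alone, at 7.77, 7.89 and 7.52 against 8.43, 8.46 and 8.64 with shApela_1 and 8.46, 8.52 and 8.75 in shLuc (-0.79, SE 0.11, adjusted p = 0.0175). Klhl42 lay above the reference with shApela_1 (9.01, 9.05 and 8.85) and below it with shApela_2 (8.29, 8.29 and 8.14), beside 8.47, 8.56 and 8.54 in shLuc (-0.73, SE 0.06, adjusted p = 0.0044). Fam171b (-0.77, adjusted p = 0.00486), Mosmo, a modulator of Smoothened (-0.61, adjusted p = 0.0283), and the protease inhibitor Serpinb6c (-0.65, adjusted p = 0.0102) were lower. With Serpinb6a (-0.40, adjusted p = 0.0329) Serpinb6c made 2 calls among 11 measured Serpinb6, Serpinb9 and Serpinb1a genes (18.2%, beside 0.948% of all genes). Their probes may not tell close relatives apart, which was not tested.

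**Figure D5:**
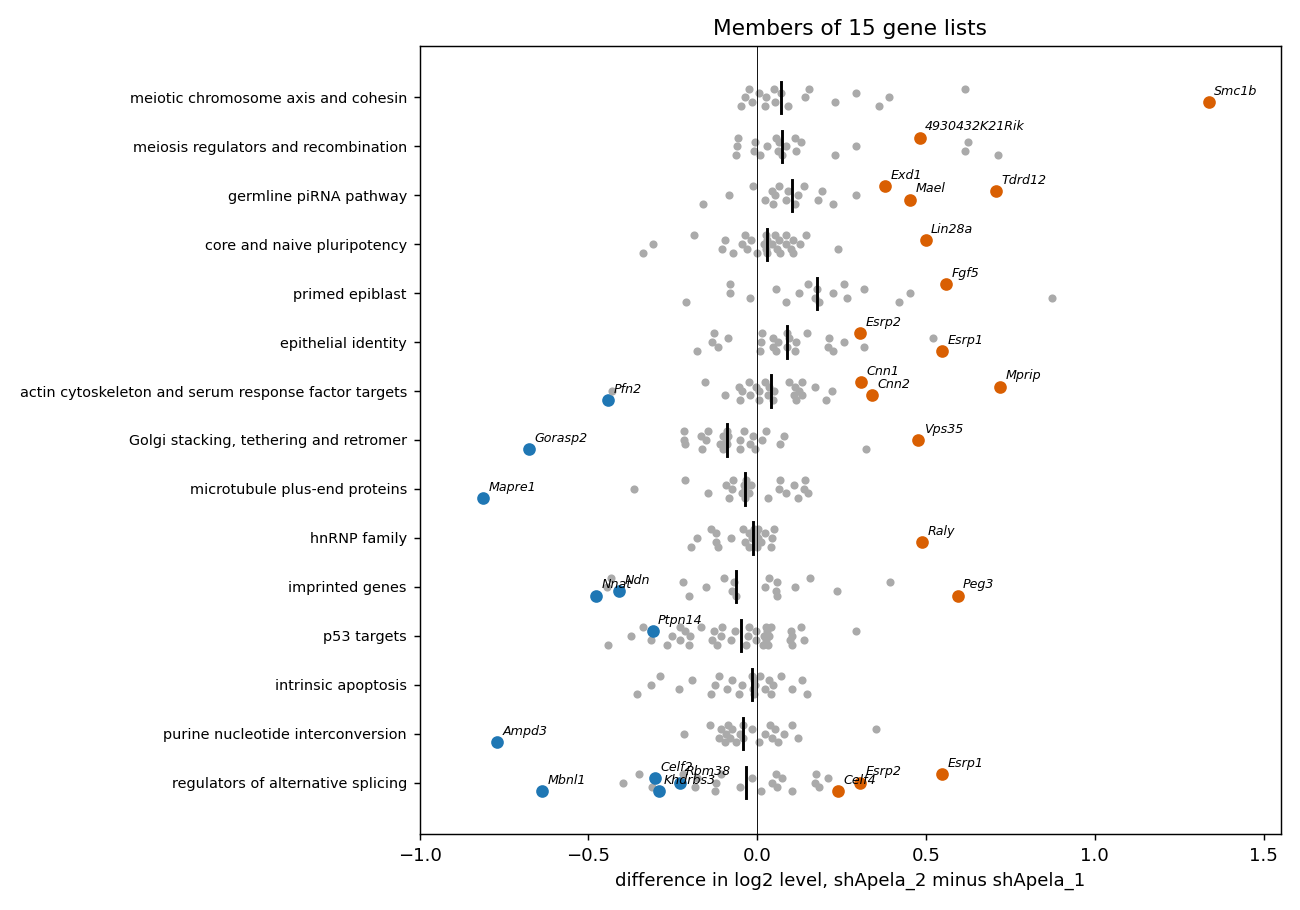
Difference in log2 level, shApela_2 minus shApela_1 (horizontal axis), of each measured member of 15 gene lists. Orange and blue points are members that passed, higher and lower in shApela_2, grey points all others, and black bars list medians. Calls stand on single members such as Smc1b at 1.34 or Mapre1 at -0.81, while list medians stay between -0.09 and 0.18.

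Other lists held 1 call or none. List medians within about 0.04 of 0, here and above, are given without a direction, since several of them changed sign with centred medians or a second quantile normalization. Some wider medians changed sign as well. That of cholesterol synthesis was 0.05 without the third shApela_2 array, with 16 of 20 genes higher in place of 7. Those of heat shock response, imprinted genes, endoderm, primitive streak and mesoderm, and two-cell-like state also crossed 0 in some alternative. In primed epiblast Fgf5 was the 1 of 19 genes to pass (5.26%, beside 0.948% of all genes). The list median was 0.18, with 15 higher in shApela_2, and 0.07 without the third shApela_2 array. With the block 5 passed, all higher (26.3%, beside 3.28% of all genes in either direction). In that list Lef1, a Wnt-responsive transcription factor, measured 0.87 (adjusted p = 0.252, and 0.0106 with the block), with 7.24, 7.92 and 8.30 for shApela_1, 8.46, 8.54 and 9.07 for shApela_2 and 8.40, 8.66 and 9.18 for shLuc. Hif1a, the oxygen-regulated transcription factor, was the 1 of 31 genes of hypoxia response and glycolysis to pass, at 0.30 (adjusted p = 0.0265, and 0.0508 with centred medians), with a list median of 0.05; 3 passed with the block. In limma 0 members passed among interferon and antiviral response (27 measured, median 0.06), integrated stress and unfolded protein response (29, 0.03) or heat shock response (16, -0.06). The same held for cholesterol synthesis (20, -0.05), DNA replication in S phase (32, -0.02), mitosis (30, 0.02) and mesenchymal transition (14, -0.07). At an unadjusted p under 0.05 these lists held 22 of 168 genes, beside 2571 of all 19938 (12.9%). The antiviral gene Oasl2 measured 0.38 (adjusted p = 0.106, and 0.0345 with the block), and the intermediate filament gene Vim -0.25 (adjusted p = 0.144, and 0.0447 with the block). The widest difference that did not pass was that of Tdpoz3, at 10.31, 9.97 and 9.87 with shApela_1 against 9.39, 8.82 and 8.34 with shApela_2 and 9.19, 9.01 and 8.91 with shLuc (-1.20, adjusted p = 0.0573, and 0.00843 with the block).

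Markers of other cell types that a stem cell culture can hold gave 0 calls in limma. At an unadjusted p under 0.05 they held 10 of 105 genes, beside 12.9% of all genes. With the block 2 trophectoderm genes and 1 fibroblast gene passed, and 1 fibroblast gene without the third shApela_2 array. The trophectoderm list had 21 of 23 genes higher in shApela_2 with a median of 0.12 (16 of 23 and 0.07 without the third shApela_2 array). Primitive and definitive endoderm had 17 of 23 higher (0.07, and 13 of 23 and 0.03 without that array). Primitive streak and mesoderm had 15 of 18 (0.09, and 12 of 18 and 0.02 without it). Neuroectoderm had 15 of 18 (0.06, and 12 of 18 and 0.02 without it). Fibroblast feeder had 15 of 19 (0.07, and 0.03 without it) and two-cell-like state 1 of 6 (-0.05, and 2 of 6 and -0.025 without it). The mean level of the trophectoderm list over its genes ranged from 7.43 to 7.52 on the shLuc arrays, from 7.29 to 7.42 with shApela_1 and from 7.41 to 7.47 with shApela_2. For the fibroblast list the ranges were 6.98 to 7.04, 6.97 to 7.05 and 7.02 to 7.17. In a bulk sample fewer cells of a type and less RNA per cell cannot be told apart, and the part of such cells in the differences above was not tested.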

How the data were processed

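Arrays were Affymetrix arrays of biotin-labelled total RNA, 3 per group. The authors deposited log2 expression for every probe set of each array, computed by RMA in Partek 6.6, per the submitters' processing notes; the RMA settings are not stated, and base 2 was inferred from the range. RMA as usually run draws arrays towards a common distribution, which can hide a change shared by most genes. Of 28853 probe sets 21775 had 1 gene symbol, 1578 several and 5500 none in GEO's platform annotation; 998 genes had more than 1 probe set.

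Genes were tested with limma 3.58.1 in R 4.3.3 (lmFit, eBayes, two-sided, 9 arrays in 1 fit; residual degrees of freedom 6, prior 2.72), with Benjamini-Hochberg adjustment over 19938 genes and a threshold of 0.05. The fit was tested on simulated data. Adjusted p-values without another name come from this fit, SE is limma's, and precision is limited by how few arrays there are. The text names the 15 largest differences on each side among genes that passed without overlap, up to 4 called members of each list (or up to 2 leads where none passed), Apela, Apln and Aplnr; predicted genes were left out. Members, the 39 lists and the rule were chosen with earlier results of these data known, and 5 further lists after the differences were seen. No share of a list is therefore independent evidence. Each list count is to be read beside 0.948% of all genes in this fit, and 3.28% with the block. Promoter sequences are RefSeq's (GRCm38.p6). Same-numbered arrays of the hairpins deviated together from their group means (correlations 0.18, 0.21 and 0.21, each above 0.1). On that basis alone they were treated as pairs in the fit with the replicate block, which is an alternative. That block also spans the shLuc arrays, whose correlations by replicate were 0.44, 0.40 and 0.68 with shApela_1 and -0.01, 0.67 and 0.47 with shApela_2. The limma fit described above held no block, so adjusted p-values without another name are unpaired. Alternatives were a trended robust prior, only the hairpin arrays, the replicate block, no dim genes, other scalings and probe set rules, array weights, stricter thresholds and each array left out.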

Additional observations from a re-analysis of the deposited data

How the results depend on the processing

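The 189 genes kept their sign in every alternative fit run on genes that held them. For fits that left out or weighted arrays or added the block, the lack of overlap between the hairpins fixed this in advance. Counts moved by over 1.5 times with only the 6 hairpin arrays (28 genes, 12 higher and 16 lower in shApela_2), where the fit holds fewer samples, with the replicate number as a block (653, 251 and 402), with array weights (1446, 652 and 794) and with only arrays numbered 1 and 2, chosen after seeing the data (434, 233 and 201). They also moved at an adjusted p of at most 0.01 (27, 11 and 16) and at 1.5-fold (23, 7 and 16). A second quantile normalization moved the number of higher genes to 144 and centred medians to 38. Leaving out 1 array gave from 19 to 222 genes, from 6 to 100 higher and from 13 to 122 lower. Of 79 named genes that passed, the block kept 79 and added 7 of the others. The Apela difference of 0.02 changed sign with centred medians (-0.018), and without 1 array it lay between -0.019 and 0.098, below 0 without the third shApela_1 array (-0.005) or the first or second shApela_2 array. The cause of these shifts was not tested. Dim genes near background are measured least well, and 13 of the 189 lay below the median probe set.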
